A study of Mus musculus with 9 samples.

Results

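The 34 genes described here encode the glucose and lactate transporters and the enzymes of glycolysis and of the pentose phosphate pathway. They were chosen by name: the rows of the gene table whose Ensembl identifiers carry the 34 symbols in GENCODE M21, which are 27 genes of transport and glycolysis and 7 of the pentose phosphate pathway among 54281 identifiers. All 34 passed the filter on low counts, which left 15713 genes for testing. Total RNA was sequenced from unsorted lung macrophages of 9 mice (wild-type females from Jackson Labs, aged 12 weeks). Ozone, an oxidant air pollutant, had been breathed at 0.8 ppm for 3 h in a whole-body chamber by 6 of the mice, of which 3 were killed 72 h and 3 were killed 24 h later, and the other 3 mice had air as controls. The cells were washed out of the lung by lavage with massage, and red cells were lysed. No label used here names the strain or says when the air controls were killed.

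Glycolysis splits glucose to pyruvate in the cytosol and yields ATP and NADH. Lactate dehydrogenase then turns pyruvate into lactate, which restores NAD+, and monocarboxylate transporters carry the lactate out of the cell. The pentose phosphate pathway branches off after the hexokinase step: its oxidative arm makes NADPH, which recycles glutathione and feeds the oxidant burst of phagocytes, and its non-oxidative arm exchanges sugars with glycolysis and supplies ribose for nucleotides. Macrophages stimulated by bacterial products are known to raise glycolysis, whereas resident alveolar macrophages live in an air space poor in glucose and are known to rely more on oxidative metabolism.

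Estimated counts summed to between 48882768 and 53630150 per library at 72 h, 47095543 and 50826921 at 24 h, and 51797737 and 60248305 in air. Levels are CPM, counts scaled to the library total after TMM scaling. Markers of alveolar macrophages, 15 genes such as Siglecf, Marco and Fabp4, were all detected and summed to 26940 to 31850 CPM at 72 h, 22960 to 32070 CPM at 24 h and 33820 to 36490 CPM in air. Among the 9, 1 library of each ozone group stood apart. Replicate 1 at 72 h and replicate 2 at 24 h held 871 and 1615 CPM of 10 B cell markers, against 1.89 to 10.8 CPM in the other 7, and 854 and 638 CPM of 9 markers of serous cavity macrophages other than Fn1, against 4.33 to 7.73 CPM. With Fn1, which alone had 1348 to 4405 CPM, the 10 serous markers summed to 5258 and 3121 CPM, against 1352 to 3330 CPM. On that sum replicate 2 at 24 h did not stand apart. T cell markers summed to 75.0 and 666 CPM in the same pair of libraries, against 4.48 to 15.3 CPM, and red cell markers to 2547 and 2942 CPM, against 22.8 to 874 CPM. Neutrophil markers summed to 167 and 193 CPM, against 62.3 to 86.3 CPM, and monocyte and interstitial macrophage markers to 392 and 382 CPM, against 115 to 175 CPM. The alveolar macrophage markers were lowest in this pair, at 26940 and 22960 CPM, against 29280 to 36490 CPM. Air replicate 2 stood apart in another way, with 2.42 CPM of Xist, the RNA of the inactive X chromosome, against 887 to 1482 CPM in the other 8 libraries. The Y-linked Ddx3y and Eif2s3y were at 0 in all 9. Uty was at 0 to 0.0204 CPM, and Kdm5d at 0.0601 to 0.239 CPM, with 0.135 CPM in air replicate 2. Results are therefore also given without this pair of ozone libraries, and counts without air replicate 2.

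In the 3 air libraries, the levels per kilobase of exon ran from Gapdh, 437.9 CPM per kb, through Aldoa with 364, Taldo1 with 294, Ldha with 157 and Pkm with 155, down to Pfkm with 0.402, Slc2a3 with 0.175, Eno2 with 0.147 and Ldhb with 0.103. The same 5 genes led at 72 h and at 24 h. The sum over all 34 genes was 7487 ± 319 CPM at 72 h, 9010 ± 320 CPM at 24 h and 8557 ± 368 CPM in air (SD, n = 3 each). No 72 h library, at 7164 to 7802 CPM, reached the lowest 24 h library, at 8732 CPM. The 72 h and air libraries were also apart, since the lowest air library held 8171 CPM.

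The sharpest contrast lay between the 2 times after ozone. Of the 34 genes, 13 were lower at 72 h than at 24 h and 2 were higher by edgeR (adjusted p under 0.05 over all 15713 genes, referred to as called). These are 38.2% and 5.88% of the 34, where 12.8% of all genes tested were lower and 5.39% higher. The 13 were the glucose transporter gene Slc2a1, Gpi1, Aldoa, Tpi1, Gapdh, Pgk1, Pkm, Ldha and the lactate transporter gene Slc16a1 of glycolysis, and Pgls, Rpia, Tkt and Taldo1 of the pentose phosphate pathway. The 2 that were higher were Pfkfb2 and Eno2. The median log2 fold change over the 34 was -0.26, against -0.03 over all genes tested, and 26 of the 34 values were negative, 76.5%, as were 53.1% of those of all genes. All 3 libraries at 72 h lay below all 3 at 24 h for 15 of the 34 genes, 44.1%, where 22.7% of all genes did so.

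The number called rested on the libraries used. It was 11 without replicate 1 at 72 h and replicate 2 at 24 h together, with 8 lower (Slc2a1, Aldoa, Tpi1, Pgk1, Pkm, Ldha, Rpia and Tkt) and 3 higher (Pfkfb2, Eno2 and Ldhb), against 15.1% of all genes called in that fit. With 1 library left out at a time it was 8 without replicate 1, 2 without replicate 2 and 6 without replicate 3 at 72 h, 7, 11 and 8 without replicates 1, 2 and 3 at 24 h, and 10, 10 and 9 without replicates 1, 2 and 3 in air. The number called over all genes also fell in each of these fits. Without replicates 1, 2 and 3 at 72 h, 10.9%, 2.02% and 7.6% of all genes were called, beside 23.5%, 5.88% and 17.6% of the 34. In the 6 fits without a 24 h or air library 6.22% to 15.6% of all genes were called, beside 20.6% to 32.4% of the 34. Tpi1 and Pgk1 were called in all 9 of these fits, Pfkfb2, Rpia and Ldha in 8, Slc2a1 in 7, and Eno2 and Tkt in 6. The other 7 were called in 3 or fewer, and Gpi1, Gapdh and Taldo1 in none. The log2 fold change of each of the 15 kept its sign in all 9 fits.

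Against air, 4 of the 34 genes were called at 72 h, all of them lower: Tpi1, Ldha, Rpia and Taldo1. That is 11.8% of the 34, where 5.47% of all genes tested were called, 3.77% lower and 1.71% higher. The median log2 fold change was -0.06, against -0.01 over all genes, with 21 of 34 negative (61.8%, against 51% of all genes). The libraries of the 72 h and air groups did not overlap in 13 genes that were lower at 72 h, 38.2% against 22.1% of all genes, and in 5 that were higher, 14.7% against 17.5%. Without the pair of ozone libraries 4 genes were called, but they were Tpi1 (lower) and Eno2, Ldhb and Pfkfb2 (higher), where 7.12% of all genes were called. With 1 library left out at a time the count was 9 without replicate 2 at 24 h, 1 without air replicate 1 and 0 in each of the other 7 fits, among them the fit without air replicate 2. Over all genes 1625 were called without replicate 2 at 24 h (10.1%), 198 without air replicate 1 (1.17%), and 7 to 89 (0.0416% to 0.525%) in the 7 fits with 0, 18 of them without air replicate 2. Over all genes the direction of the calls moved with the scaling: 592 of 860 called genes were lower at 72 h than in air under TMM scaling, 282 of 506 with DESeq2 size factors and 107 of 299 with upper quartile scaling. For 72 h against 24 h they were 2008 of 2855, 1644 of 2530 and 1302 of 2465.

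At 24 h, none of the 34 genes was called against air by edgeR, where 0.00636% of all genes were. By edgeR 4 of the 34 had an unadjusted p under 0.05, where 14.7% of all genes had one. DESeq2 called 2 of the 34 (5.88%), Slc2a1 and Pgk1, both higher at 24 h, where it called 618 of the 12298 genes to which it gave an adjusted p (5.03%). It gave none to Slc2a3 and Ldhb, which are counted in the 34. The log2 fold changes had a median of 0.11, against 0.01 over all genes, and 25 of 34 were positive, where 52.4% of all genes were. In 6 genes, 17.6% of the 34, all 24 h libraries lay above all air libraries, as in 10.4% of all genes. These were Slc2a1, Gapdh, Pgk1, Pkm, Rpia and Rpe. In none did they all lie below, as in 9.06% of all genes. The air libraries serve both comparisons against air, and each ozone group also serves 2 comparisons.

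**Figure D1:**
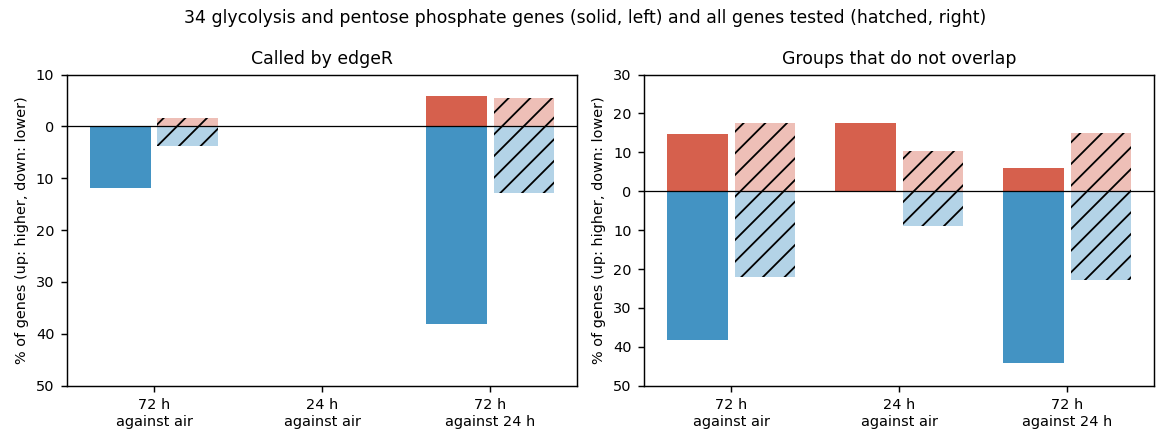
Share of the 34 glycolysis and pentose phosphate genes (solid bars, left) and of all 15713 genes tested (hatched bars, right) that were called by edgeR (left panel) or whose groups did not overlap (right panel); bars above 0 are higher, bars below 0 lower in the group named first, in percent of genes. Among the 34 genes the share called lower at 72 h was 38.2% against 24 h and 11.8% against air, against 12.8% and 3.77% of all genes.

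Markers of other cells moved beside these results. Of the 15 alveolar macrophage markers 3 (20%, against 3.77% of all genes) were called lower and 0 higher at 72 h against air. Against 24 h 0 were lower and 1 was higher (6.67%), where 12.8% of all genes were lower and 5.39% higher. At 24 h against air edgeR called none of the 15, with 8 at an unadjusted p under 0.05, where 14.7% of all genes had one. Of the 15 log2 fold changes 12 were negative, with a median of -0.27. For 9 markers (60%) all 24 h libraries lay below all air libraries, where this held for 9.06% of all genes. Of 15 lung epithelium markers 6 (40%) were higher at 72 h in each of the 2 comparisons, against 1.71% (air) and 5.39% (24 h) of all genes, although their sum did not separate the groups, at 559.5 to 729.5 CPM at 72 h, 618 to 799.7 CPM at 24 h and 691 to 857 CPM in air. The sum was lowest in replicate 1 at 72 h and replicate 2 at 24 h, and the other 7 libraries held 690.7 to 857 CPM. Of 10 dendritic cell markers 4, also 40%, were higher at 72 h in each comparison, and 1 was lower against 24 h (10%, against 12.8% of all genes). Their sum was 111 to 122 CPM at 72 h, 54.5 to 111 CPM at 24 h and 51.7 to 65.9 CPM in air. Of 9 serous cavity macrophage markers tested 1 (11.1%), Fn1, was called, higher at 72 h in each comparison. Its values were 1.11 ± 0.20, edgeR adjusted p = 0.028 against air and 0.81 ± 0.20, edgeR adjusted p = 0.0263 against 24 h. None of these markers was at 0 in all libraries, and their part in the changes of the 34 genes was not tested. In RNA from mixed cells, fewer cells of a type and less RNA per cell cannot be told apart.

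Promoters are shown for 4 of the genes called between 72 h and 24 h. Tpi1 and Pgk1 were called lower in each of the 9 fits with 1 library left out. Ldha, the step to lactate, was called in 8 of the 9, and Eno2, which was higher, in 6. Pfkfb2 and Rpia, also called in 8, are not shown. Each window holds 300 bases, 250 before and 50 after the RefSeq start on GRCm38.p6, 5′ to 3′ along the gene, with the motifs in capitals.
Tpi1, chr6:124814109-124814408, minus strand: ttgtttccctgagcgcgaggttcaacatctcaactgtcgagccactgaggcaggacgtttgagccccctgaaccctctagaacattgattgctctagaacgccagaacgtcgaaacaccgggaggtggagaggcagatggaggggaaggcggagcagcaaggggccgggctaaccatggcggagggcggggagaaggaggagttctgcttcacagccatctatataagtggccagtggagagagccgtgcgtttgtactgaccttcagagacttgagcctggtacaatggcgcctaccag
Pgk1, chrX:106186850-106187149, plus strand: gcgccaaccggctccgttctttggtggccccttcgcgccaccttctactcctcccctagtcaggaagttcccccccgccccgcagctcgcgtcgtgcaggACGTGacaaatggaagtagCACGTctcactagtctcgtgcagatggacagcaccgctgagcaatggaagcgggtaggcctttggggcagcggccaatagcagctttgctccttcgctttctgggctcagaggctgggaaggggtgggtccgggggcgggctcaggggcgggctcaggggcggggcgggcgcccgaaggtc
Ldha, chr7:46845554-46845853, plus strand: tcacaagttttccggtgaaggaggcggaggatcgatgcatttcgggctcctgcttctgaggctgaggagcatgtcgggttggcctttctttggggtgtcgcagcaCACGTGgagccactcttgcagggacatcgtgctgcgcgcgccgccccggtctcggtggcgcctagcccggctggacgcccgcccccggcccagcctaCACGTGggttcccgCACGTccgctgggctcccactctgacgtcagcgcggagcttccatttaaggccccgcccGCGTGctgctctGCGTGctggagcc
Eno2, chr6:124769624-124769923, minus strand: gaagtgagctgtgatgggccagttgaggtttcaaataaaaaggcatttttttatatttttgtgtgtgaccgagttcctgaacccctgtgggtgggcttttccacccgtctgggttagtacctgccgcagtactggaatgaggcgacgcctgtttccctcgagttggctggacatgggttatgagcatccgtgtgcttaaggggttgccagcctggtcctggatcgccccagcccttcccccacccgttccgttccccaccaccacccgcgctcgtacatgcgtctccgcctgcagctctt
The motifs searched on both strands were ACGTG and GCGTG, the core letters of hypoxia response elements, CACGTG, the E box bound by factors such as MYC and the glucose-sensing pair MLX and MLXIP, and TGACNNNGC, the core of antioxidant response elements. A CACGTG holds ACGTG on each strand. The Pgk1 window held 2 ACGTG. The Ldha window held 2 CACGTG, which give 4 of its 5 ACGTG, and 2 GCGTG. The Tpi1 and Eno2 windows held none of the 4 motifs. The start used for Ldha lies 4329 bases inside the GENCODE gene, and the others within 138 bases of the gene's 5′ end. For Pfkfb2, the other gene that was higher, the window nearest to that end held 1 GCGTG. Another Pfkfb2 window held 2 ACGTG, 2 GCGTG and 1 CACGTG. Among the 15 genes called between 72 h and 24 h, 5 windows held ACGTG, 9 GCGTG, 2 CACGTG and 1 TGACNNNGC. Among the 33 genes of the 34 with a RefSeq window the counts were 13, 20, 3 and 2, and over all 32851 windows the shares were 19.6%, 32.4%, 7.15% and 12.4%.

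Glucose enters through facilitative transporters. Slc2a1, which encodes the widely expressed transporter GLUT1 at chr4:119108711-119137983, had 21.7, 18.6 and 20.5 CPM at 72 h, 25.8, 28.6 and 26.4 CPM at 24 h and 17.4, 15.5 and 18.5 CPM in air. The 24 h libraries stood above all others, and those at 72 h lay between them and air without overlap. Slc2a1 was lower at 72 h than at 24 h (log2 fold change -0.41 ± 0.09, edgeR adjusted p = 0.0175). Its value against air was 0.25 ± 0.09, edgeR adjusted p = 0.129 at 72 h and 0.65 ± 0.09, edgeR adjusted p = 0.112 at 24 h, the second called by DESeq2 (adjusted p = 6.69e-08) and not by edgeR. Slc2a3, which encodes the high-affinity transporter GLUT3 of neurons and white blood cells, had 7.86, 1.16 and 1.04 CPM at 72 h, 1.26, 10.6 and 0.885 CPM at 24 h and 1.46, 0.998 and 1.35 CPM in air. It was high in the pair of libraries with B cell markers and low in the other 7, so that its log2 fold changes against air were 1.40 ± 1.16 at 72 h and 1.74 ± 1.17 at 24 h, neither called. Slc2a6, a transporter of the same family, had 7.01 to 14.0 CPM at 72 h, 5.00 to 11.4 CPM at 24 h and 5.65 to 12.3 CPM in air and was not called.

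Hexokinases trap glucose by phosphorylation, and phosphoglucose isomerase turns the product into fructose phosphate. Of the 4 genes of this step, 1 was called. Gpi1, the isomerase at chr7:34201330-34230336, had 372, 369 and 386 CPM at 72 h, 434, 427 and 431 CPM at 24 h and 415, 426 and 435 CPM in air. It was lower in every library at 72 h than in any at 24 h or in air, by a small step (-0.20 ± 0.06, edgeR adjusted p = 0.042, and -0.18 ± 0.06, edgeR adjusted p = 0.0916 against air). The call against 24 h was lost without the pair of ozone libraries (-0.17, edgeR adjusted p = 0.0933). Hk2, the hexokinase that insulin and hypoxia are known to induce, had 52.4, 49.4 and 57.2 CPM at 72 h, 64.5, 35.8 and 47.9 CPM at 24 h and 45.1, 38.8 and 49.5 CPM in air, and the groups overlapped (0.10 ± 0.19, edgeR adjusted p = 0.773 against 24 h). Hk1, the broadly expressed form, had 22.7 to 29.6 CPM at 72 h, 19.7 to 36.4 CPM at 24 h and 20.5 to 21.7 CPM in air, with the highest values in replicate 2 at 24 h and replicate 1 at 72 h. Hk3, the form typical of myeloid cells, had 46.5 to 49.0 CPM at 72 h, 42.4 to 50.8 CPM at 24 h and 42.6 to 50.7 CPM in air. Neither Hk1 nor Hk3 was called.

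Phosphofructokinase commits sugar to glycolysis, and none of its 3 genes was called. Pfkp, the platelet type, was the most abundant per kilobase, with 242, 272 and 265 CPM at 72 h, 302, 243 and 298 CPM at 24 h and 302, 277 and 281 CPM in air. The 72 h libraries lay below the air libraries but not below the 24 h libraries (-0.14 ± 0.09, edgeR adjusted p = 0.363 against air). Pfkl, the liver type, had 30.6 to 50.2 CPM at 72 h, 41.4 to 64.0 CPM at 24 h and 39.6 to 49.4 CPM in air. Pfkm, the muscle type, had 2.65, 1.58 and 1.55 CPM at 72 h, 1.26, 4.65 and 1.16 CPM at 24 h and 1.40, 0.947 and 1.68 CPM in air, highest in the pair of libraries with B cell markers.

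The bifunctional enzymes of the Pfkfb family make and break fructose bisphosphate that activates phosphofructokinase. Pfkfb2, the form first known from heart, at chr1:130689182-130729253, was higher at 72 h, with 19.3, 20.3 and 20.0 CPM at 72 h, 13.5, 11.8 and 15.1 CPM at 24 h and 15.7, 16.3 and 14.0 CPM in air. All 72 h libraries stood above all 24 h and air libraries (0.56 ± 0.10, edgeR adjusted p = 0.00951, and 0.38 ± 0.10, edgeR adjusted p = 0.0614 against air). It was called in both comparisons without the pair of ozone libraries (0.52, edgeR adjusted p = 0.0168, and 0.42, edgeR adjusted p = 0.0296 against air). Pfkfb4 was the most abundant of the 3, with 242, 278 and 273 CPM at 72 h, 281, 206 and 258 CPM at 24 h and 284, 272 and 272 CPM in air, and its groups overlapped. Pfkfb3, the form known from proliferating and inflammatory cells, had 42.3, 58.4 and 60.9 CPM at 72 h, 39.6, 53.0 and 58.4 CPM at 24 h and 54.3, 61.0 and 53.3 CPM in air, also overlapping (0.10 ± 0.17, edgeR adjusted p = 0.752 against 24 h). The share of Pfkfb2 in the summed level per kilobase of the family was 4.29% ± 0.27 at 72 h, 3.13% ± 0.23 at 24 h and 3.19% ± 0.20 in air (SD, n = 3 each).

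Aldolase and triose phosphate isomerase yield the triose phosphates. Tpi1, the isomerase at chr6:124810586-124814296, was called lower in both comparisons of 72 h. Its levels were 104, 108 and 115 CPM at 72 h, 145, 145 and 148 CPM at 24 h and 134, 144 and 148 CPM in air, so the 72 h libraries lay well below both other groups, which overlapped each other. The log2 fold change was -0.42 ± 0.06, edgeR adjusted p = 0.00669 against 24 h, a ratio of 0.749, and -0.38 ± 0.06, edgeR adjusted p = 0.0236 against air. Both calls held without the pair of ozone libraries (-0.37, edgeR adjusted p = 0.0166, and -0.32, edgeR adjusted p = 0.0244). Aldoa, the main aldolase here, at chr7:126795234-126800751, had 802, 884 and 902 CPM at 72 h, 1114, 1001 and 1102 CPM at 24 h and 994, 1098 and 1083 CPM in air. All 72 h libraries were below all others (-0.31 ± 0.08, edgeR adjusted p = 0.0326 against 24 h, and -0.30 ± 0.08, edgeR adjusted p = 0.0709 against air). A second, distinct row named Aldoa held 0.204 to 0.432 CPM and is not counted among the 34. Aldoc, known as the brain form, had 74.3 to 86.8 CPM at 72 h, 73.8 to 96.2 CPM at 24 h and 67.1 to 86.5 CPM in air and was not called.

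Of the 7 genes that take triose phosphate to pyruvate, 3 were lower and 1 was higher at 72 h than at 24 h, and none was called against air. Gapdh, the dehydrogenase often used as a reference gene in PCR, at chr6:125161715-125166467, had 1537, 1674 and 1709 CPM at 72 h, 1988, 1984 and 1975 CPM at 24 h and 1730, 1875 and 1824 CPM in air. The groups did not overlap, with 24 h highest and 72 h lowest (-0.27 ± 0.07, edgeR adjusted p = 0.0376 against 24 h). This call was lost without the pair of ozone libraries (-0.21, edgeR adjusted p = 0.0764). Pgk1, the first ATP-yielding kinase of the pathway, at chrX:106187100-106203699, had 138, 142 and 152 CPM at 72 h, 203, 223 and 203 CPM at 24 h and 169.9, 163 and 194 CPM in air. Its 3 groups were also apart in the same order (-0.54 ± 0.08, edgeR adjusted p = 0.00683, a ratio of 0.686), and the value was -0.29 ± 0.08, edgeR adjusted p = 0.0711 at 72 h and 0.26 ± 0.08, edgeR adjusted p = 0.225 at 24 h against air. Pkm, the pyruvate kinase that yields the second ATP, at chr9:59656368-59679375, had 626, 697 and 702 CPM at 72 h, 837, 826 and 844 CPM at 24 h and 738, 799.5 and 786 CPM in air. It showed the same order without overlap (-0.31 ± 0.07, edgeR adjusted p = 0.0228 against 24 h), and the call held without the pair of ozone libraries (-0.24, edgeR adjusted p = 0.0468).

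The mutase Pgam1, with 140.1 to 162 CPM at 72 h, 168 to 218 CPM at 24 h and 152 to 184 CPM in air, and the enolase Eno1, with 425 to 475 CPM at 72 h, 509 to 579.8 CPM at 24 h and 448 to 550.3 CPM in air, were below 24 h in every 72 h library without being called (-0.29 ± 0.12, edgeR adjusted p = 0.115 for Pgam1, and -0.26 ± 0.10, edgeR adjusted p = 0.0974 for Eno1). Eno2, the enolase known as neuron-specific, at chr6:124760053-124769673, moved the other way at a low level, with 1.41, 1.78 and 1.63 CPM at 72 h, 0.5, 0.813 and 0.316 CPM at 24 h and 0.551, 0.727 and 0.798 CPM in air. All 72 h libraries stood above all 24 h and air libraries (1.56 ± 0.34, edgeR adjusted p = 0.0172, a ratio of 2.95, and 1.21 ± 0.33, edgeR adjusted p = 0.0663 against air). With the pair of ozone libraries left out it was called against both groups (2.08, edgeR adjusted p = 0.00881, and 1.32, edgeR adjusted p = 0.0245 against air). Eno2 gave 0.387% ± 0.066 of the summed enolase level per kilobase at 72 h, 0.107% ± 0.042 at 24 h and 0.156% ± 0.019 in air. Eno3, the muscle enolase, had 6.11 to 7.05 CPM at 72 h, 5.50 to 11.3 CPM at 24 h and 5.36 to 6.85 CPM in air and was not called.

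**Figure D2:**
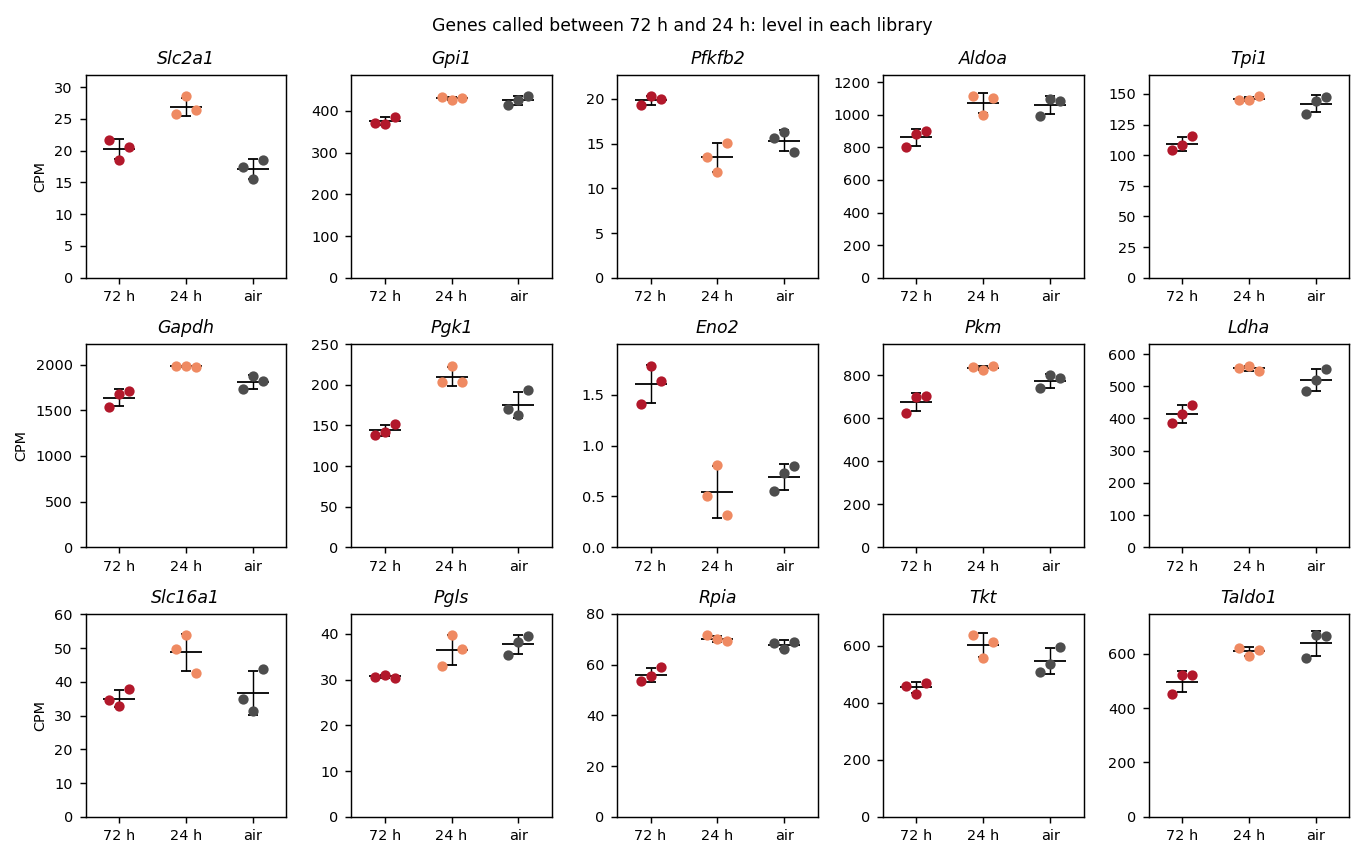
Levels in CPM of the 15 genes called between 72 h and 24 h; points are libraries (replicates 1 to 3 from left to right), lines the mean and bars the SD of 3 libraries, and each vertical axis starts at 0. The 72 h points lie below the 24 h points in 13 panels and above them for Pfkfb2 and Eno2.

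Lactate dehydrogenase and the lactate transporters close the fermentative route. Ldha, the dehydrogenase subunit of glycolytic tissues, at chr7:46841475-46855627, had 384, 413 and 440.2 CPM at 72 h, 557, 563 and 548 CPM at 24 h and 486, 519.7 and 553 CPM in air. The 72 h libraries lay below all others, and 24 h and air overlapped. Ldha was lower at 72 h than at 24 h (-0.43 ± 0.08, edgeR adjusted p = 0.0095, a ratio of 0.742) and than in air (-0.33 ± 0.08, edgeR adjusted p = 0.0435). Without the pair of ozone libraries the first call held (-0.35, edgeR adjusted p = 0.025) and the second did not (-0.26, edgeR adjusted p = 0.0611). Slc16a1, the transporter MCT1 at chr3:104638668-104658462, had 34.5, 32.9 and 37.7 CPM at 72 h, 49.6, 53.8 and 42.7 CPM at 24 h and 35.0, 31.3 and 43.8 CPM in air, highest at 24 h (-0.48 ± 0.13, edgeR adjusted p = 0.0391 for 72 h against 24 h). The groups at 72 h and in air overlapped, and the call was lost without the pair of ozone libraries (-0.37, edgeR adjusted p = 0.155). Slc16a3, the transporter MCT4 of lactate-exporting cells, had 39.4 to 45.9 CPM at 72 h, 38.2 to 57.4 CPM at 24 h and 35.2 to 44.4 CPM in air and was not called.

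Ldhb, the dehydrogenase subunit of oxidative tissues such as heart, turned with a single library. It had 1.49, 0.662 and 0.652 CPM at 72 h, 0.18, 21.5 and 0.169 CPM at 24 h and 0.118, 0.169 and 0.2 CPM in air. The value of replicate 2 at 24 h stood far above the other 8, and the 3 libraries at 72 h lay above all 3 in air and above the other 2 at 24 h. The log2 fold change of 72 h against 24 h was -2.96 ± 1.73, edgeR adjusted p = 0.289. It was 2.42 (edgeR adjusted p = 0.017) without replicate 2 at 24 h and 1.92, edgeR adjusted p = 0.0193 without the pair of ozone libraries, the opposite direction. Against air the value at 72 h was 2.50 ± 1.81, edgeR adjusted p = 0.415 with all libraries and 2.01, edgeR adjusted p = 0.014 without the pair. The levels of B cell markers in these libraries stand above, and their part in the Ldhb values was not tested.

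**Figure D3:**
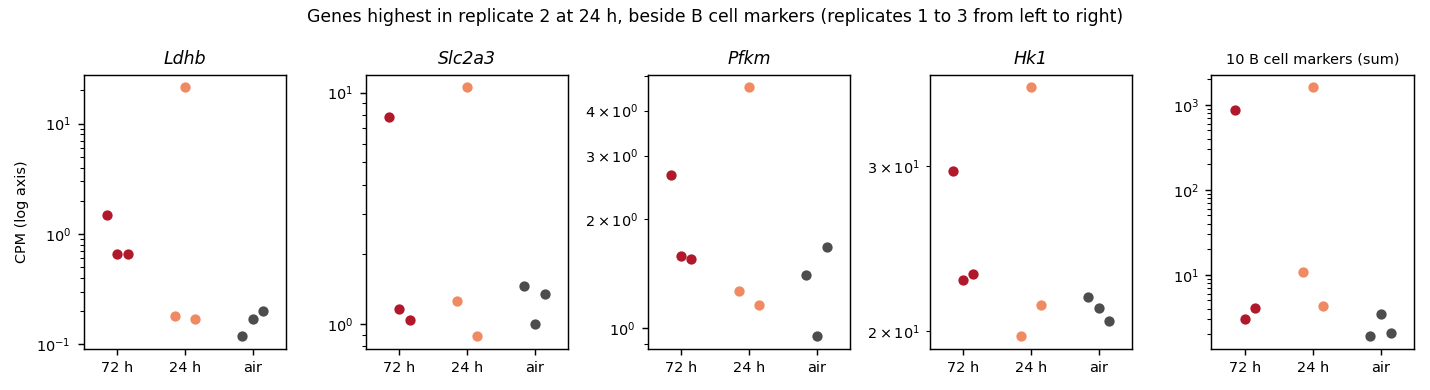
Levels in CPM on a log axis of Ldhb, Slc2a3, Pfkm and Hk1 and of the sum of 10 B cell markers in each library, replicates 1 to 3 from left to right in each group. Replicate 1 at 72 h and replicate 2 at 24 h hold 871 and 1615 CPM of the markers, and Slc2a3, at 7.86 and 10.6 CPM, is highest in the same libraries.

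In the oxidative arm of the pentose phosphate pathway, 1 of 3 genes was called. Pgls, the lactonase at chr8:71592176-71601092, had 30.7, 31.0 and 30.4 CPM at 72 h, 33.0, 39.7 and 36.7 CPM at 24 h and 35.3, 38.2 and 39.5 CPM in air, and all 72 h libraries were below all others (-0.25 ± 0.07, edgeR adjusted p = 0.0489 against 24 h, and -0.30 ± 0.07, edgeR adjusted p = 0.0533 against air). The call was lost without the pair of ozone libraries (-0.16, edgeR adjusted p = 0.197). Pgd, the second NADPH-producing dehydrogenase, was the most abundant per kilobase, with 423, 389 and 437 CPM at 72 h, 594, 388 and 430.2 CPM at 24 h and 451, 449 and 533 CPM in air. The 72 h libraries were below air but overlapped 24 h, where replicate 1 was highest (-0.18 ± 0.15, edgeR adjusted p = 0.471). G6pdx, the X-linked dehydrogenase that makes the first NADPH and sets the flow into the pathway, had 174 to 203 CPM at 72 h, 177 to 211 CPM at 24 h and 186 to 213 CPM in air. Its value was 0.00 ± 0.09, edgeR adjusted p = 0.981 against 24 h and -0.06 ± 0.09, edgeR adjusted p = 0.707 against air.

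Of the 4 genes of the non-oxidative arm, 3 were lower at 72 h than at 24 h, and 2 of these were also lower than in air. Rpia, the isomerase that makes ribose phosphate, at chr6:70765720-70792232, had 53.4, 55.4 and 58.9 CPM at 72 h, 71.5, 70.0 and 69.1 CPM at 24 h and 68.6, 66.1 and 69.0 CPM in air, with 72 h clear of the other 2 groups. Its value was -0.33 ± 0.05, edgeR adjusted p = 0.00744 against 24 h and -0.28 ± 0.05, edgeR adjusted p = 0.0281 against air. Taldo1, the transaldolase and the most abundant gene of this arm, at chr7:141392199-141402968, had 452, 521 and 521 CPM at 72 h, 623, 591 and 616 CPM at 24 h and 586, 668 and 664 CPM in air. All 72 h libraries were again below all others (-0.29 ± 0.08, edgeR adjusted p = 0.0447 against 24 h, and -0.36 ± 0.08, edgeR adjusted p = 0.0471 against air). Tkt, the transketolase at chr14:30548359-30574720, had 460.1, 432 and 469.7 CPM at 72 h, 636, 557 and 615 CPM at 24 h and 506, 534 and 595 CPM in air, lowest at 72 h (-0.41 ± 0.09, edgeR adjusted p = 0.0158 against 24 h, and -0.26 ± 0.09, edgeR adjusted p = 0.1 against air). Rpe, the epimerase, had 46.4 to 55.5 CPM at 72 h, 54.3 to 60.3 CPM at 24 h and 51.6 to 53.8 CPM in air and was not called (-0.17 ± 0.07, edgeR adjusted p = 0.133 against 24 h). Without the pair of ozone libraries the calls of Rpia and Tkt against 24 h held (-0.28, edgeR adjusted p = 0.0259 for Rpia, and -0.45, edgeR adjusted p = 0.0192 for Tkt). That of Taldo1 was lost (-0.23, edgeR adjusted p = 0.0834), as were the calls of Rpia and Taldo1 against air (-0.23, edgeR adjusted p = 0.0512 for Rpia, and -0.27, edgeR adjusted p = 0.0578 for Taldo1).

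**Figure D4:**
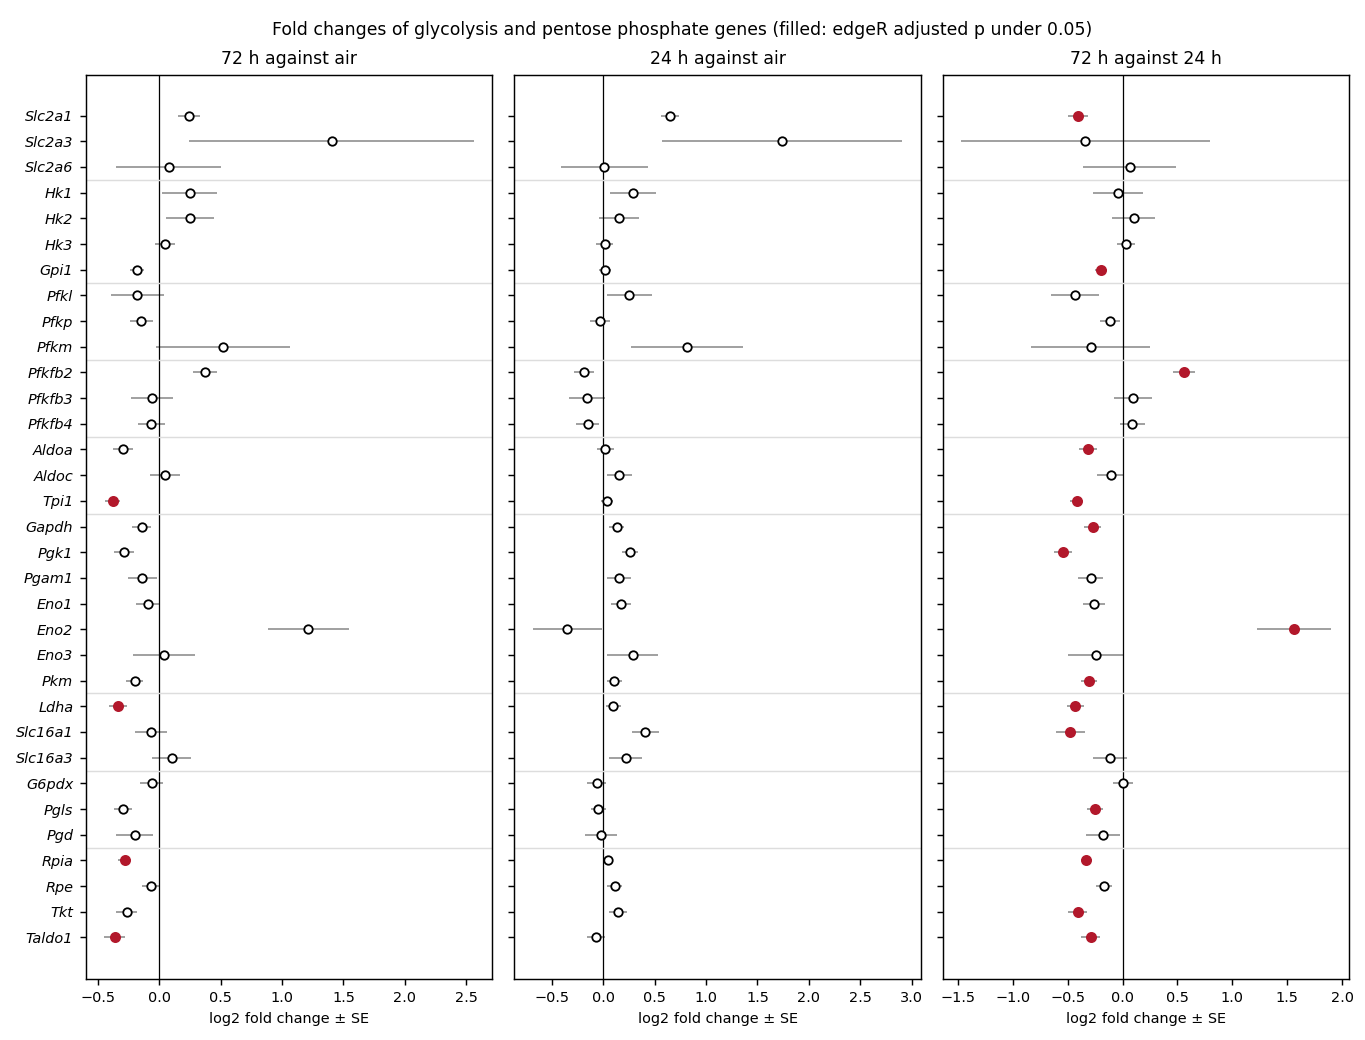
Log2 fold changes with SE of 33 of the 34 genes in the 3 comparisons, ordered by step from transport to the pentose phosphate pathway; filled points are called by edgeR. Ldhb, with -2.96 ± 1.73 for 72 h against 24 h, lies outside the scale and is not drawn, and Pgk1, at -0.54, is the lowest point in the panel of 72 h against 24 h.

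The make-up of the isozyme families was set out as shares of their summed level. Hk3 gave 52.3% ± 1.7 of the hexokinase level per kilobase at 72 h, 52.8% ± 3.9 at 24 h and 55.7% ± 2.1 in air, and Aldoa gave 92.4% ± 0.4 of the aldolase level at 72 h, 93.4% ± 0.5 at 24 h and 93.9% ± 0.8 in air. For 10 pairs of isozymes the log2 ratio of their CPM within each library was compared in the 3 comparisons, 30 exact two-sided permutation tests in which 3 against 3 libraries cannot give a p below 0.1, and all adjusted p were 1. The groups were apart in 3 of the 30. Where groups do not differ, 3 and 3 libraries still lie apart with a probability of 0.1 in each test, and the tests share libraries and genes. The log2 ratio of Aldoc to Aldoa was higher at 72 h than in air by 0.35 and than at 24 h by 0.21, with an exact p of 0.1 each. That of Ldhb to Ldha was higher at 72 h than in air by 2.78, with an exact p of 0.1. Groups that are apart stay apart when a library is left out, so such fits can only add to these, and smaller groups lie apart more easily. Without replicate 2 at 24 h, 5 ratios were apart between 72 h and 24 h. Without air replicate 2, 4 were apart between 72 h and air.

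**Figure D5:**
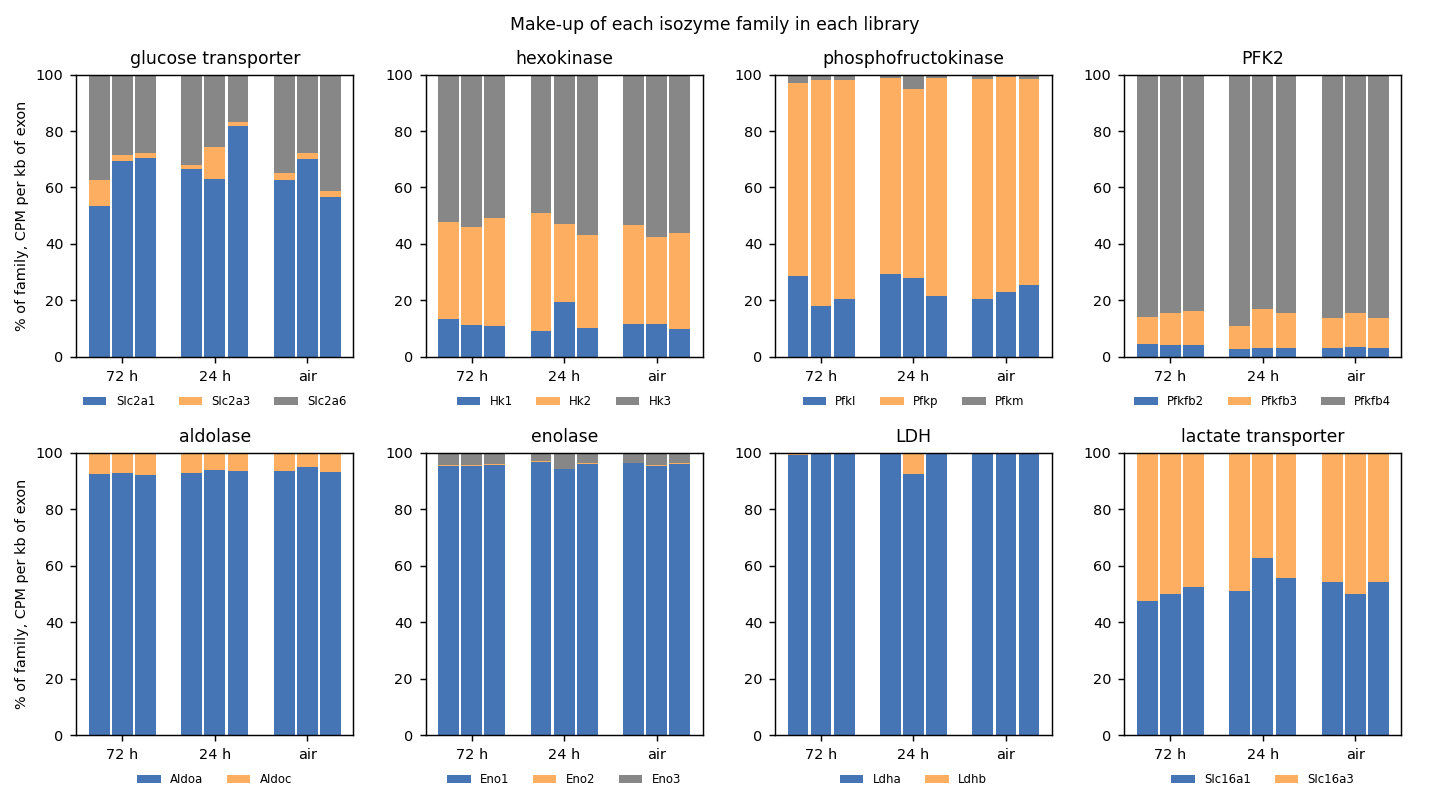
Share of each isozyme in the summed level of its family, in percent of CPM per kb of exon, with 1 bar per library (replicates 1 to 3 from left to right in each group). Slc2a3 takes 11.3% and Ldhb 7.45% of their families in replicate 2 at 24 h, against 9.33% or less and 0.812% or less in the other libraries.

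Further genes of glucose metabolism, a list of 40 of which 24 were tested, gave 1 call for 72 h against air and 2 against 24 h. These are 4.17% and 8.33% of the 24, below the 5.47% and 18.2% of all genes. Gpd1, the cytosolic glycerol phosphate dehydrogenase that draws on triose phosphate, had 20.9, 21.3 and 20.7 CPM at 72 h, 26.4, 21.1 and 27.2 CPM at 24 h and 38.1, 34.3 and 30.8 CPM in air and was lower at 72 h than in air (-0.72 ± 0.11, edgeR adjusted p = 0.0234), a call held in 1 of the 9 fits with 1 library left out and without the pair of ozone libraries (-0.69, edgeR adjusted p = 0.00567). It was not called against 24 h (-0.25 ± 0.11, edgeR adjusted p = 0.146). Against 24 h, 2 were lower at 72 h and none higher: Pgp, a phosphatase that removes toxic side products of glycolysis (-0.38 ± 0.08, edgeR adjusted p = 0.015), and Bsg, the chaperone of the lactate transporters (-0.25 ± 0.06, edgeR adjusted p = 0.0201). Without the pair of ozone libraries the call of Pgp held and that of Bsg was lost (-0.22, edgeR adjusted p = 0.0584). The medians were -0.04 against air and -0.11 against 24 h, beside -0.01 and -0.03 over all genes. At 24 h against air edgeR called none, with 4 of the 24 at an unadjusted p under 0.05, where 14.7% of all genes had one. DESeq2 called Gpd1, lower at 24 h (-0.47, DESeq2 adjusted p = 0.00926). In that comparison Bsg, at 161 ± 3.73 CPM at 24 h and 151 ± 7.60 CPM in air, and the mitochondrial Gpd2, at 71.6 ± 13.5 CPM at 24 h and 75.3 ± 6.06 CPM in air, were the most abundant (SD, n = 3 each).

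Of 22 regulators, 21 were tested, and 2 were called for 72 h against air (9.52%, against 5.47% of all genes) and 5 against 24 h (23.8%, against 18.2%). Egln1, the prolyl hydroxylase that marks HIF1A for breakdown, was lower at 72 h than at 24 h (-0.28 ± 0.05, edgeR adjusted p = 0.00861) and than in air (-0.30 ± 0.05, edgeR adjusted p = 0.0236). Mpc2, a subunit of the mitochondrial pyruvate carrier, was also lower in both (-0.32 ± 0.08, edgeR adjusted p = 0.0234 against 24 h, and -0.35 ± 0.08, edgeR adjusted p = 0.0378 against air). Between 72 h and 24 h, Mlx was lower (-0.19 ± 0.04, edgeR adjusted p = 0.0203) and its partner Mlxip higher (0.34 ± 0.09, edgeR adjusted p = 0.0301), and Vhl, part of the ligase that degrades HIF1A, was higher (0.25 ± 0.07, edgeR adjusted p = 0.0434). At 24 h against air neither edgeR nor DESeq2 called any, with 2 of the 21 at an unadjusted p under 0.05 by edgeR, where 14.7% of all genes had one. The most abundant were Txnip, a brake on glucose uptake, at 1382 ± 148 CPM at 24 h and 1658 ± 121 CPM in air, and Nfe2l2, the gene of the antioxidant factor NRF2, at 273 ± 47.9 CPM at 24 h and 259 ± 6.72 CPM in air (SD, n = 3 each). Without the pair of ozone libraries, Egln1 was called lower against both groups and Vhl higher against 24 h, and the calls of Mpc2, Mlx and Mlxip were lost. That fit called 7.12% of all genes against air and 15.1% against 24 h. With 1 library left out at a time, the calls against air held in 2 of 9 fits for Egln1 and in 1 for Mpc2. Against 24 h they held in 8 for Egln1, 5 for Mlx, 4 for Mpc2 and 3 each for Mlxip and Vhl.

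Hypoxia response genes outside glycolysis were called in both directions. Of 18 on the list, 17 were tested, and at 72 h 1 was higher and 1 lower in each comparison. That is 11.8% of the 17 in each, against 5.47% of all genes for 72 h against air and 18.2% for 72 h against 24 h. Vegfa, the vascular growth factor gene, was higher at a low level, with 1.22, 1.23 and 1.41 CPM at 72 h, 0.581, 0.647 and 0.316 CPM at 24 h and 0.63, 0.507 and 0.599 CPM in air (1.32 ± 0.28, edgeR adjusted p = 0.0166 against 24 h, and 1.15 ± 0.28, edgeR adjusted p = 0.0499 against air). Bnip3, a mitophagy receptor gene, was lower at 72 h than in air (-0.52 ± 0.12, edgeR adjusted p = 0.0423). The call of Bnip3 was lost without the pair of ozone libraries (-0.39, edgeR adjusted p = 0.0533), and with 1 library left out at a time the calls of Bnip3 and Vegfa against air held in 1 of 9 fits each. Higd1a, a mitochondrial protein gene induced by hypoxia, was lower at 72 h than at 24 h (-0.53 ± 0.10, edgeR adjusted p = 0.0123). At 24 h against air edgeR called none, with 3 of the 17 at an unadjusted p under 0.05, where 14.7% of all genes had one. DESeq2 called Ndrg1, a gene induced by hypoxia and stress (0.77, DESeq2 adjusted p = 0.000179), named here after its values were seen. Ndrg1 had 7.95, 10.97 and 10.9 CPM at 24 h and 6.16, 5.295 and 6.02 CPM in air, without overlap (0.77 ± 0.14, edgeR adjusted p = 0.117). In that comparison Bnip3l, at 346 ± 23.2 CPM at 24 h and 410.2 ± 7.60 CPM in air, and Bhlhe40, at 327 ± 100.1 CPM at 24 h and 320.5 ± 54.6 CPM in air, were the most abundant (SD, n = 3 each).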

How the data were processed

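Total RNA of lung macrophages from 9 mice was sequenced with a stranded total RNA kit, with RNA integrity numbers of at least 8.8, per the labels' protocols. The authors deposited estimated counts per gene, not scaled to library size, 80.5% of them whole. Per the submitters' processing notes, Trimmomatic 0.39, FastQC, Salmon and DESeq2 were used with GRCm38.p6; the sources used here give neither the other versions nor whether counting used strand. Symbols from GENCODE M21 matched 54107 of 54281 identifiers. Reads of a gene overlapped on the opposite strand, as Tpi1 by Spsb2, Gapdh by Iffo1 and Aldoa by Fam57b, or with near-identical copies, such as Gapdh and Eno1, may be shared out wrongly. Levels per kilobase use the union of exons, which overstates the length of single transcripts.

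Estimated counts were rounded. edgeR 4.0.16 in R 4.3.3 (filterByExpr, TMM, robust quasi-likelihood) fitted all 9 libraries at once, with Benjamini-Hochberg adjustment over 15713 genes. Fold changes carry SE, the log2 fold change over the square root of F. P-values rest on 3 mice a group. The genes, lists and tests were chosen with earlier results of these data known. No library was a copy of another. Alternatives were other scalings, no filter, DESeq2 1.42.0, limma 3.58.1 voom, only the 6 libraries compared, a replicate block and each library left out; the fit without the pair of ozone libraries was chosen after seeing the data. Each of the 34 genes is named. Libraries are given singly for called genes, the 3 largest changes in each direction and the most abundant gene of each step; of the other lists, up to 4 called genes with the smallest p, or else the 2 most abundant. On simulated data over 15713 genes, 1.5-fold, 2-fold and 4-fold changes were recovered at 23.9%, 38.8% and 78.8% for 72 h against 24 h. For 72 h against air the rates were 20.9%, 47.8% and 72.7%, and for 24 h against air 23.9%, 52.2% and 71.2%. Each simulation changed 67, 67 and 66 genes by these folds and gave every gene the spread typical of its level. It called 98 to 102 genes, where the data gave 2855, 860 and 1 in these comparisons. The adjusted p depends on how many genes change, so these rates are not those of the data.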

Additional observations from a re-analysis of the deposited data

Results flagged for a closer look

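The 2 groups killed after ozone differed by the direct test of 72 h against 24 h (edgeR adjusted p under 0.05). It marked 15 of the 34 genes, 44.1%, where 18.2% of all genes were marked. Without air controls of known time, this test does not separate an effect of ozone from other differences between the groups, such as their mix of cells. The air libraries enter the shared estimate of the spread. With only the 6 ozone libraries 9 of the 34 were marked, 26.5%, beside 12.4% of all genes. The log2 fold changes were, for transport and glycolysis, Slc2a1 (-0.41), Gpi1 (-0.20), Aldoa (-0.31), Tpi1 (-0.42), Gapdh (-0.27), Pgk1 (-0.54), Pkm (-0.31), Ldha (-0.43) and Slc16a1 (-0.48). For the pentose phosphate pathway they were Pgls (-0.25), Rpia (-0.33), Tkt (-0.41) and Taldo1 (-0.29). They were positive for Pfkfb2 (0.56) and Eno2 (1.56).

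Among related genes the same test marked Pgp (-0.38), Bsg (-0.25), Egln1 (-0.28), Mlx (-0.19), Mpc2 (-0.32) and Higd1a (-0.53), which were lower at 72 h, and Mlxip (0.34), Vhl (0.25) and Vegfa (1.32), which were higher. They make up 8.33% of the 24 further genes of glucose metabolism tested and 23.8% of the 21 regulators tested. Of the 17 hypoxia response genes tested they are 11.8%, where 18.2% of all genes were marked.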

How the results depend on the processing

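Counts of called genes among the 34 moved with the setting. Those named here include counts that differ from the reported one by more than 1.5-fold and some that differ by less. For 24 h against air, with 0 called by edgeR, DESeq2 called 2. The number called over all genes, given in parentheses, moved too. For 72 h against air, with 4 called (860), DESeq2 size factors gave 2 (506), upper quartile scaling 1 (299), no filter beyond a count above 0 gave 2 (270), DESeq2 gave 12 (1936), and fits without 1 library gave 0 to 9 (7 to 1625). Only the 6 libraries compared gave 6 (1235), 3 higher and 3 lower, of which 2 were among the 4. For 72 h against 24 h, with 15 called (2855), upper quartile scaling gave 9 (2465), no filter 8 (1696), only the 6 libraries compared 9 (1907), and fits without 1 library 2 to 11 (340 to 2499). Deviations of same-numbered libraries from their group means had correlations from -0.61 to 0.475. These cannot decide whether such libraries shared a batch, since the pair of ozone libraries that stood apart carries different numbers. With a replicate block 0 were called for 72 h against air (35) and 8 for 72 h against 24 h (1474). DESeq2 called 16 (3636) and voom 14 (2868) for 72 h against 24 h. The genes called under each scaling, filter, block or tool kept the direction reported. Ldhb, not called for 72 h against 24 h at -2.96, ran from -3.50 to 2.42 when 1 library was left out, with the sign changed without replicate 2 at 24 h, and was 1.92 without the pair of ozone libraries; the cause was not tested. The number of isozyme ratios whose groups were apart was 0 to 2 at 24 h against air, 2 to 4 at 72 h against air and 1 to 5 between the times when 1 library was left out. Leaving out a library can raise such a number but cannot lower it. With 3 mice a group, a gene that was not called is not shown to be unchanged.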

Other observations

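Without the pair of ozone libraries, some genes of the related lists passed the test that had not passed it with all 9 libraries. For 72 h against 24 h these were P4ha1 (-0.34, edgeR adjusted p = 0.0166), lower at 72 h, and Kdm3a (0.34, edgeR adjusted p = 0.0314), P4ha2 (2.08, edgeR adjusted p = 0.0374) and H6pd (0.31, edgeR adjusted p = 0.0247), higher at 72 h. For 72 h against air it was P4ha2 (1.80, edgeR adjusted p = 0.0489), also higher at 72 h. In that fit of 72 h against 24 h, 1 of the 24 further genes of glucose metabolism was called higher and 1 lower. Among the 21 regulators these were 1 and 1, and among the 17 hypoxia response genes 3 and 2. Over all genes 15.1% were called. Against air the numbers were 0 and 1 of the 24, 0 and 1 of the 21, and 2 and 0 of the 17. There 7.12% of all genes were called. P4ha1 and P4ha2 encode subunits of collagen prolyl hydroxylase, Kdm3a encodes a histone demethylase, and H6pd encodes the glucose phosphate dehydrogenase of the endoplasmic reticulum. P4ha2 was near the limit of detection, with 1.43, 0.313 and 0.387 CPM at 72 h, 0.0601, 0.876 and 0.105 CPM at 24 h and 0.0985, 0.135 and 0.0665 CPM in air, and H6pd had 50.1, 55.5 and 54.1 CPM at 72 h, 44.8, 56.1 and 44.6 CPM at 24 h and 49.0, 49.6 and 45.2 CPM in air. P4ha2 was highest in the pair of libraries with B cell markers, and H6pd at 24 h was highest in replicate 2.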
